A study of Mus musculus with 6 samples.

Results

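The 10 genes described here encode the transcriptional coactivators Yap (Yap1) and Taz (Wwtr1), the DNA-binding factors Tead1 to Tead4 that recruit them to chromatin, and the vestigial-like cofactors Vgll1 to Vgll4, which bind TEAD factors at overlapping surfaces. They were chosen by gene symbol, and all 10 were found among 49366 genes with a promoter window. Accessibility was read by ATAC-seq, an assay whose transposase cuts into open chromatin, on nuclei sorted for PCM1, a perinuclear marker of muscle fibre nuclei. The mice were C57BL/6J males, 8 weeks old at injection. Their Gastrocnemius (Gastroc) and tibialis anterior (TA) received AAV6:Yap-shRNA on one side and AAV6:LacZ-shRNA, which targets a bacterial gene, on the other, and nuclei were collected 28 days later. Each group held 3 replicates, each a pool of 4 Gastroc and 4 TA muscles, so individual animals were not resolved. The Yap-shRNA vector was built on a plasmid with a CMV promoter, which is not restricted to muscle fibres. The paper names no plasmid for the LacZ-shRNA vector.

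Yap and Taz are held in the cytoplasm when the Hippo kinases phosphorylate them, and enter the nucleus to drive transcription with a TEAD factor when they do not. TEAD factors recognise the sequence ACATTCC, the core of the MCAT element of muscle genes. Vgll2 is a muscle cofactor of TEAD factors, and Vgll4 competes with Yap for TEAD binding and represses its targets. The question was whether the chromatin of these genes differed between Yap-shRNA and LacZ-shRNA myonuclei.

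An exact match to the TEAD motif (ACATTCC or its reverse complement GGAATGT) lay in 9 of 37 accessible peaks in or within 10 kb of the genes (24.3%), against 8.96% of all 35982 peaks with sequence. These sequences are shown because they place the motif at the start of Yap1, Vgll3, Wwtr1 and Tead3 and in introns of Vgll4 and Tead1. Capitals mark the TEAD motif and the E-box CAGCTG, and each sequence reads 5′ to 3′ on the strand of the gene (GRCm38). The Yap1, Vgll3, Vgll2 and Vgll1 sequences are the 250 bases before a RefSeq start (GRCm38.p6), and those of Vgll2 and Vgll1 hold no exact TEAD match and are shown for comparison.
Yap1 promoter, chr9:8004597-8004846, minus strand: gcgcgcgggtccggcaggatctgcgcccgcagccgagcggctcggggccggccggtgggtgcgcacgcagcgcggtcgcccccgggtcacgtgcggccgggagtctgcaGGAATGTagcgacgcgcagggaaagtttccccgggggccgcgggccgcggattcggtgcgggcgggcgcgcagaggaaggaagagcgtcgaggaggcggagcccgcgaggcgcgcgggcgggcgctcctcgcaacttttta
Vgll3 promoter, chr16:65814939-65815188, plus strand: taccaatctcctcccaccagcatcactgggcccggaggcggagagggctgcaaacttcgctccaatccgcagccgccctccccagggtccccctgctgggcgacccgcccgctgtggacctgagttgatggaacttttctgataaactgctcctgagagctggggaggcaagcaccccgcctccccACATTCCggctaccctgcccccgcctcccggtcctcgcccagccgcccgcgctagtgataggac
Vgll2 promoter, chr10:52022252-52022501, plus strand: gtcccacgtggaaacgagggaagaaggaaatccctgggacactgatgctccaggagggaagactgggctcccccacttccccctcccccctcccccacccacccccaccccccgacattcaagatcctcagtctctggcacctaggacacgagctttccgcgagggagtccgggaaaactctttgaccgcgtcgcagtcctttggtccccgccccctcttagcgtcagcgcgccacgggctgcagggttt
Vgll1 promoter, chrX:57087856-57088105, plus strand: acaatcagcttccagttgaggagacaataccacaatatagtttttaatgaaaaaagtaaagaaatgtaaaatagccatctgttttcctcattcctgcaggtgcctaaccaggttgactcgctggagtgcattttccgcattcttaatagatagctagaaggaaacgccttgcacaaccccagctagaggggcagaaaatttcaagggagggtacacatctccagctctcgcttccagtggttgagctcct
Vgll4 intron peak, chr6:114889027-114889326, minus strand: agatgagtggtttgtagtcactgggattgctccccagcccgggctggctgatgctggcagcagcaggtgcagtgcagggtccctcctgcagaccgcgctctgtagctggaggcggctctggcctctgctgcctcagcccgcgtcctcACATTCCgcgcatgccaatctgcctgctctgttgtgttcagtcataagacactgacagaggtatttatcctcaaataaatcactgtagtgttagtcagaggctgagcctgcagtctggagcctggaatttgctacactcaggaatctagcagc
Tead1 intron peak, chr7:112763243-112763542, plus strand: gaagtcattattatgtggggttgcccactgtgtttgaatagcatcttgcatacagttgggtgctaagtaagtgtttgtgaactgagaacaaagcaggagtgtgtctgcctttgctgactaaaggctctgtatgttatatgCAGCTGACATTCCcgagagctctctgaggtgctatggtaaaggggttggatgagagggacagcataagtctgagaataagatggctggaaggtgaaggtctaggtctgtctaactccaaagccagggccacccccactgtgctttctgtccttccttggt
Wwtr1 promoter peak, chr3:57576219-57576245, minus strand: gccccgtgccACATTCCgggtgctggg
Tead3 promoter peak, chr17:28350699-28350725, minus strand: ctcattccgtACATTCCggccatcccc
Vgll4 promoter peak, chr6:114968630-114968656, minus strand: ccctttccgtACATTCCctgcccctgc
Tead4 intron peak, chr6:128236836-128236862, minus strand: tctgggcccgACATTCCtcccagacac
second Tead1 intron peak, chr7:112757414-112757440, plus strand: cccactggtgACATTCCagcatagcct

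In the Yap1 sequence the motif began 141 bases before the RefSeq start, and in Vgll3 it began 64 bases before the start. Of 32817 RefSeq promoter sequences of 300 bases (250 before the start and 50 after it), 3.85% held the motif. There were 11 such sequences for 8 of the genes, and none for Tead1 and Tead4. The motif lay in those of Yap1 and Vgll3 and in a sequence of Tead3, and the others did not hold it. The Yap1 promoter sequence was rich in G and C (74.0%), with 49 CpG dinucleotides over 300 bases, against a median of 52.7% and 7 CpG over all promoters. The Vgll1 sequence had 43.7% G and C and 4 CpG. In the Tead1 intron peak the TEAD motif directly followed an E-box, the motif of myogenic factors, and the 2 did not overlap. An E-box was common, in 22 of the 37 peaks (59.5%) against 40.3% of all peaks. AP-1 sites (TGACTCA or TGAGTCA) lay in 6 of the 37 (16.2%) and 11.7% of all peaks, and the MEF2 motif (CTA, any 4 of A or T, TAG) in 1 (2.70%) and 2.42%. Both strands were searched. The peaks of these genes had a median width of 1002 bases, and 5 of their 10 promoter peaks held the TEAD motif, against 11.7% of 12716 promoter peaks (median width 1144 bases). A match is a run of letters and does not show binding.

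Window counts totalled between 3326803 and 10319467 per sample and peak counts between 2588520 and 6871176. LacZ-shRNA replicates 1 and 2 were the shallowest samples in both tables. Muscle fibre markers checked the label of the nuclei. Of 12 such genes, 9 lay above the 90th percentile (6.86 CPM per kb) of the 36366 windows that no listed peak overlaps, with a median of 24.5 CPM per kb. CPM are counts scaled by library size and TMM factors. Only 1 of 7 cardiomyocyte markers (median 6.39) and 1 of 6 fibroblast markers (median 3.63) lay above that percentile, as did 2 of 4 satellite cell, 2 of 6 endothelial and 2 of 6 leukocyte markers with a window. Summed CPM of the muscle fibre markers ran from 1146 to 1585 in LacZ-shRNA and from 1201 to 1360 in Yap-shRNA. The fibroblast markers summed to between 136 and 150 CPM in LacZ-shRNA and between 147 and 173 in Yap-shRNA, and the leukocyte markers to between 116 and 130 and between 129 and 139. Their part in the results below was not tested. In these pools a change in the share of a nucleus type and a change in accessibility per nucleus cannot be told apart.

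Levels were compared between genes per kb of window, since a window joins the 1 kb flanks of all annotated starts of a gene (from 2.08 kb for Wwtr1 to 11.5 kb for Tead2). Such a value averages over starts with and without a listed peak (a peak lay near 2 of 7 Vgll4 starts). It is therefore not the level of a single promoter. Tead4 (15.2 CPM per kb, mean of 6 samples), Tead3 (13.0) and Wwtr1 (10.4) were highest. Vgll4 (9.08), Vgll2 (8.60), Tead2 (7.51), Tead1 (7.29) and Vgll3 (7.22) followed. Vgll1 (2.28) and Yap1 (2.10) were lowest, and all windows had a median of 4.45. Tead4 exceeded Tead3, and Tead3 exceeded Wwtr1, in 6 of 6 samples, although the ranges of these neighbours over samples overlapped. Only the step from Vgll3 to Vgll1 separated neighbours in this order with no overlap over the 6 samples.

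**Figure D1:**
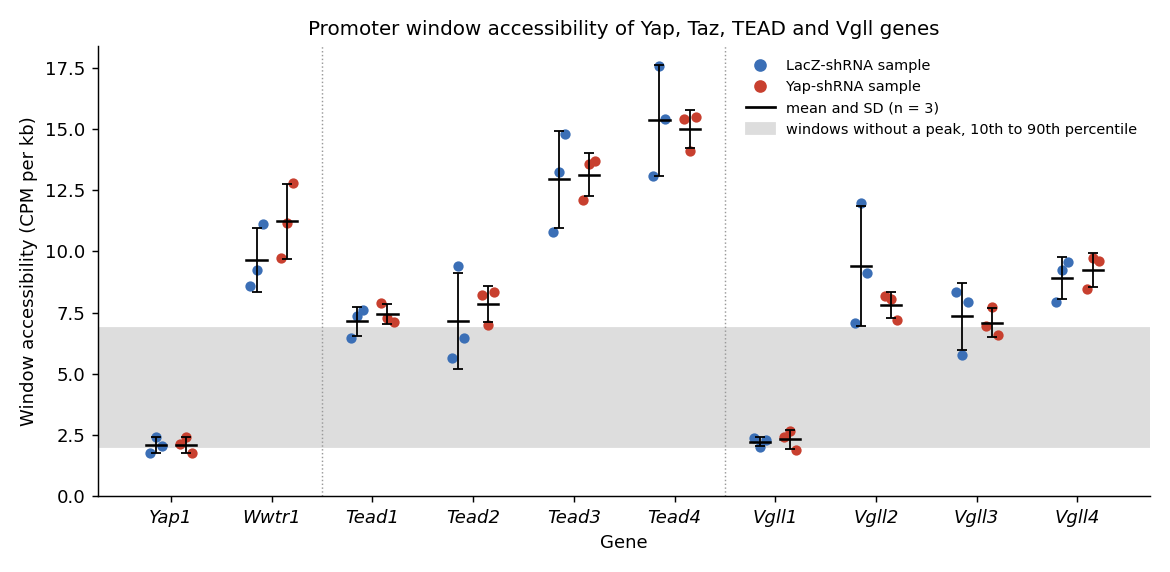
Accessibility of the promoter window of each gene in CPM per kb (vertical axis), with 1 point per sample, the mean and the SD of 3 samples per group, and a grey band for windows without a listed peak. Yap1 and Vgll1 sit near the lower edge of the band, between 1.76 and 2.67 CPM per kb, while Tead3 and Tead4 lie above it in every sample, and the LacZ-shRNA and Yap-shRNA points overlap for all 10 genes.

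The Yap1 window understates its promoter. It overlaps windows of Gm20416 and Gm45494, and its 668 counts over the 6 samples were fewer than the 823 counts of its single promoter peak. The Tead1 window also overlaps that of another gene (2310014F06Rik). In promoter peaks the order was different. Tead1 (30.7 CPM per kb at an internal start), Tead4 (28.2 and 23.7 at 2 starts), Tead3 (27.0) and Vgll2 (22.5) came first. Tead1 at its first start (21.6), Vgll3 (20.3), Wwtr1 (19.5), Yap1 (19.3) and Vgll4 (17.4) followed. No neighbours in this series were apart over the 6 samples. Tead1 has 13 annotated starts, and a listed peak lay within 1 kb of 5 of them. The Yap1 promoter peak stood at the 17.7th percentile of 12725 promoter peaks, and the internal Tead1 peak at the 72.3rd.

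No listed peak lay at any of the 16 starts of Tead2 or the 4 starts of Vgll1, so these genes have window values alone. The absence of a listed peak does not show closed chromatin here, because the windows of the muscle genes Ckm (41.0 CPM per kb) and Atp2a1 (61.0) have none either. Of 1382 windows above 14.8 CPM per kb, 82 had no listed peak. Tead2 stood at the 93.4th percentile of windows without a listed peak, and Vgll1 at the 12.9th.

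None of the 10 windows differed between groups beyond the spread between replicates. The test was edgeR's quasi-likelihood test on all 49366 windows with Benjamini-Hochberg adjustment. A positive log2 fold change means more accessibility in Yap-shRNA (SE, its standard error). The SE was derived from the estimate and the statistic of that test, and the 95% intervals were built on it. The count past an adjusted p of 0.05 was 0 of 10, against 0.0223% of all windows. At an unadjusted p under 0.05 it was also 0, against 4.90%. The likelihood-ratio test called 0 (0.0668% of all windows) and DESeq2 0 of the 6 windows to which it gave an adjusted p (0.180% of 11082 such windows). DESeq2 gave none to Yap1, Wwtr1, Vgll1 and Vgll2. In 0 of the 10 were the groups apart, against 10.1% of all windows. The estimates were higher in 7 genes and lower in 3. Their 95% intervals lay between -0.57 and 0.52, which leaves room for changes of that size.

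The targeted gene comes first. Coordinates beside a gene identifier, here and below, span the whole gene and not its window. The window of Yap1 (ENSMUSG00000053110, gene at chr9:7931999-8004596) held 12.1, 16.7 and 14.1 CPM in LacZ-shRNA replicates 1 to 3. In Yap-shRNA replicates 1 to 3 it held 14.7, 16.5 and 12.1 CPM. The values of the groups were interleaved, with a log2 fold change of 0.039 (SE 0.18, adjusted p 0.990). An shRNA acts on the transcript, so this is no measure of the knockdown. Its promoter peak, which lies within 1 kb of a Gm45494 start too, held 21.4, 20.0 and 27.3 CPM in LacZ-shRNA and 25.3, 27.1 and 23.5 in Yap-shRNA. The groups overlapped there as well (0.11, SE 0.15, p 0.487), and the estimate was 0.29 without LacZ-shRNA replicate 3. Of the other Yap1 peaks, the intronic one held 17.4 CPM on average and the one over an exon near the 3′ end 7.52 CPM.

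Wwtr1 (ENSMUSG00000027803, chr3:57455649-57575910) encodes Taz, the paralogue of Yap. Its window held 17.9, 19.2 and 23.1 CPM in LacZ-shRNA and 20.3, 23.3 and 26.7 in Yap-shRNA. The highest value was in Yap-shRNA and the lowest in LacZ-shRNA, but the groups overlapped, and the log2 fold change of 0.20 (SE 0.16, p 0.216, adjusted p 0.950) had a 95% interval from -0.12 to 0.52. Leaving out LacZ-shRNA replicate 3 gave 0.34, and leaving out either Yap-shRNA replicate 3 or LacZ-shRNA replicate 1 gave 0.10. The promoter peak, its single peak within 10 kb, gave 17.3, 16.1 and 19.6 CPM against 17.8, 21.3 and 25.0. That is 0.24 on the log2 scale (SE 0.17, p 0.153, adjusted p 0.751), again with overlapping groups, and 0.11 without Yap-shRNA replicate 3.

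Among the TEAD factors, log2 fold changes of the windows ran from -0.023 to 0.15. Tead1 (ENSMUSG00000055320, chr7:112679318-112906807) held 67.1, 76.3 and 78.8 CPM in LacZ-shRNA and 81.7, 75.4 and 73.8 in Yap-shRNA. Tead2 (ENSMUSG00000030796, chr7:45215753-45233644) held 65.3, 108 and 74.6 CPM against 94.7, 80.6 and 96.2. LacZ-shRNA replicate 2, the shallowest sample, was both the highest Tead2 value and the widest apart from its group, and without it the log2 fold change was 0.37 rather than 0.15. Without LacZ-shRNA replicate 1 it was 0.025. Tead3 (ENSMUSG00000002249, chr17:28331671-28350817) held 60.2, 73.7 and 82.4 CPM against 67.5, 75.7 and 76.3, and Tead4 (ENSMUSG00000030353, chr6:128224288-128300823) 53.4, 71.8 and 63.0 against 63.0, 57.6 and 63.3. In all 4 genes the groups overlapped, and adjusted p-values ran from 0.955 to 0.993.

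The Vgll cofactors had log2 fold changes from -0.23 to 0.054. Vgll1 (ENSMUSG00000031131, chrX:57088106-57106540) held 12.5, 10.6 and 12.2 CPM in LacZ-shRNA and 12.7, 14.1 and 9.97 in Yap-shRNA. Vgll2 (ENSMUSG00000049641, chr10:52022502-52028471) held 15.7, 26.6 and 20.3 CPM against 18.1, 17.9 and 16.0, with LacZ-shRNA replicate 2 highest and LacZ-shRNA replicate 1 lowest. Its log2 fold change of -0.23 (SE 0.17, p 0.181, adjusted p 0.949) was the lowest of the 10, and it was -0.070 without LacZ-shRNA replicate 2 and -0.38 without LacZ-shRNA replicate 1 (unadjusted p 0.0191). Vgll3 (ENSMUSG00000091243, chr16:65815257-65866368) held 36.5, 25.3 and 34.6 CPM against 30.5, 33.8 and 28.7, and Vgll4 (ENSMUSG00000030315, chr6:114860628-114969994) 70.6, 82.3 and 85.2 against 75.3, 86.6 and 85.4. Both overlapped between groups.

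**Figure D2:**
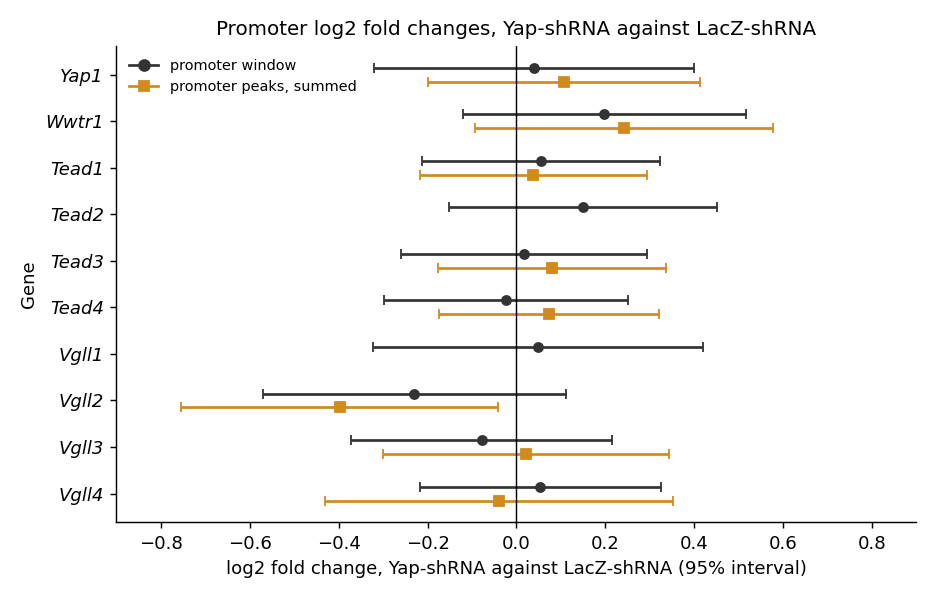
Log2 fold change of Yap-shRNA against LacZ-shRNA (horizontal axis, with 95% intervals) for the promoter window of each gene and for its promoter peaks summed (8 genes have them). Every window interval includes 0, and the summed peaks of Vgll2 (-0.40) are the one interval that does not.

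The 3 families were compared by the median log2 fold change of their windows. It was 0.12 for the coactivators, 0.036 for the TEAD factors and -0.015 for the Vgll cofactors, beside -0.014 for all windows. Within a sample, the mean level of the Vgll windows was 1.24, 1.24 and 1.10 times that of the coactivators in LacZ-shRNA replicates 1 to 3, and 1.09, 1.04 and 0.867 times in Yap-shRNA. The ranges were apart by 1.10 against 1.09, a gap between single samples. Against the TEAD factors the Vgll level was 0.714, 0.610 and 0.653 times in LacZ-shRNA and 0.595, 0.671 and 0.566 in Yap-shRNA, which overlapped. These ratios average a few genes, 2 of which (Yap1 and Tead1) have an uncertain window, and were not tested. The coactivator values rest on 2 genes, and their mean level more on Wwtr1 (10.4 CPM per kb) than on Yap1 (2.10). Wwtr1 was highest in Yap-shRNA replicate 3 (12.8 CPM per kb), the sample with the ratio of 0.867.

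The genes carried 37 listed peaks in or within 10 kb of them, 10 of them at their own starts and 23 elsewhere in the gene. Tead1, the longest gene, held 15, Tead4 held 7, Vgll4 held 5, Yap1 and Tead3 held 3 each, Vgll2 held 2, and Wwtr1 and Vgll3 held 1 each. Estimates were higher in 24 and lower in 13, with a median log2 fold change of 0.074. By edgeR's quasi-likelihood test 0 of 37 passed an adjusted p of 0.05, against 0.618% of all 36097 peaks. The likelihood-ratio test called 1 (1.05% of all peaks) and DESeq2 called 0 of 34 with an adjusted p (0.502% of 23500 such peaks). An unadjusted p under 0.05 was seen in 3 of 37, all lower in Yap-shRNA, against 8.90% of all peaks (5.31% lower). The groups were apart in 5 (13.5%), against 13.3% of all peaks, with 2 lower (6.76% of all peaks) and 3 higher (6.55%). These counts are close to the background.

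**Figure D3:**
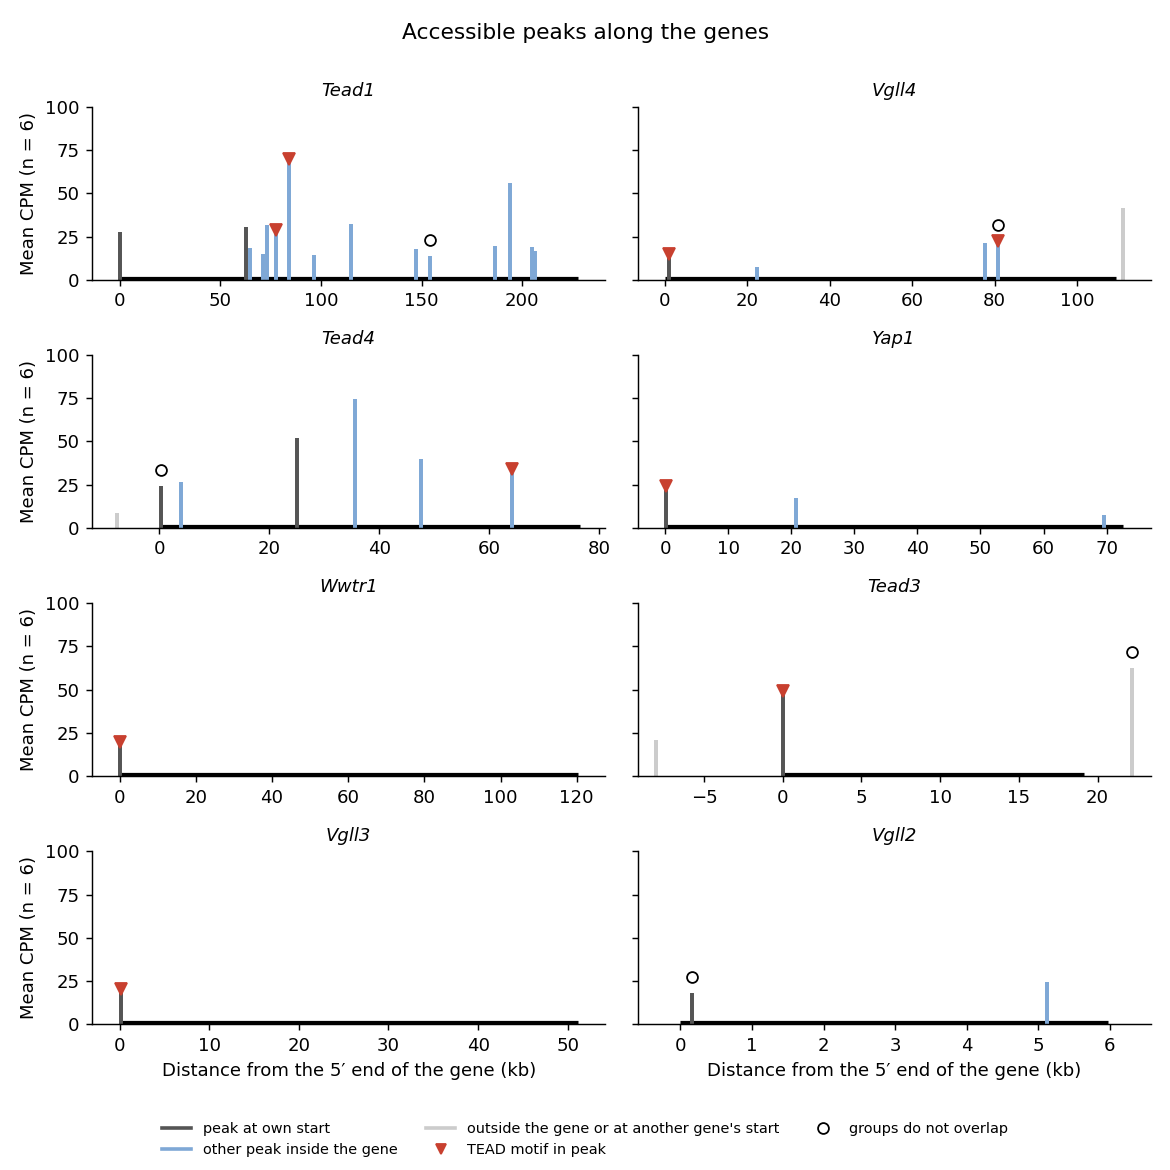
Mean CPM over 6 samples of each listed peak (height) against its distance in kb from the 5′ end of the gene, which is drawn as a black bar. The TEAD motif (triangles) lies at the starts of Yap1, Wwtr1, Tead3, Vgll3 and Vgll4 and inside Tead1, Tead4 and Vgll4, and 5 peaks have groups that do not overlap (circles).

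The smallest p-value was at a peak of 780 bases in an intron of Vgll4 (chr6:114888769-114889548). Its TEAD motif, shown above, lies 32.6 kb downstream of the nearest upstream protein-coding start and 80.0 kb downstream of the next. The peak held 25.7, 31.0 and 24.7 CPM in LacZ-shRNA, from 94, 73 and 168 reads, and 18.4, 17.6 and 17.9 CPM in Yap-shRNA, from 128, 127 and 108 reads. All Yap-shRNA samples lay below all LacZ-shRNA samples, and they were close together (18.0 ± 0.400 against 27.2 ± 3.36 CPM, SD, n = 3 each). The log2 fold change was -0.57 (SE 0.15, 95% interval -0.88 to -0.26, p 6.25e-04), but the adjusted p of 0.0783 did not pass. It passed in the likelihood-ratio test (adjusted p 0.0404) and in none of the other 12 settings, over which the adjusted p reached 0.368. The nearest other Vgll4 peak, also intronic and with no TEAD motif, held 16.7, 22.1 and 24.0 CPM against 20.7, 23.8 and 21.2 (log2 fold change 0.048, SE 0.16). The Vgll4 promoter peak, which has the motif, held 16.4, 8.92 and 19.3 CPM against 13.2, 17.4 and 15.7 (-0.039, SE 0.19). The most accessible peak counted with Vgll4 by distance (41.4 CPM) lies 984 bases past the end of Vgll4. It overlaps another annotated gene, and its log2 fold change was 0.10 (SE 0.13).

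The second of the 3 was the Vgll2 promoter peak (chr10:52022270-52023069), which covers most of the Vgll2 sequence shown above and holds no exact TEAD match. It held 16.7, 27.2 and 18.4 CPM in LacZ-shRNA and 14.5, 15.8 and 15.2 in Yap-shRNA. The groups were apart by a small gap and LacZ-shRNA replicate 2 stood high. The log2 fold change was -0.40 (SE 0.18, p 0.0297, adjusted p 0.472), and without LacZ-shRNA replicate 2 it was -0.22. A peak over an exon 5.1 kb further on held 23.3, 24.6 and 26.1 CPM against 21.2, 28.1 and 21.8, with overlapping groups (-0.063, SE 0.15).

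**Figure D4:**
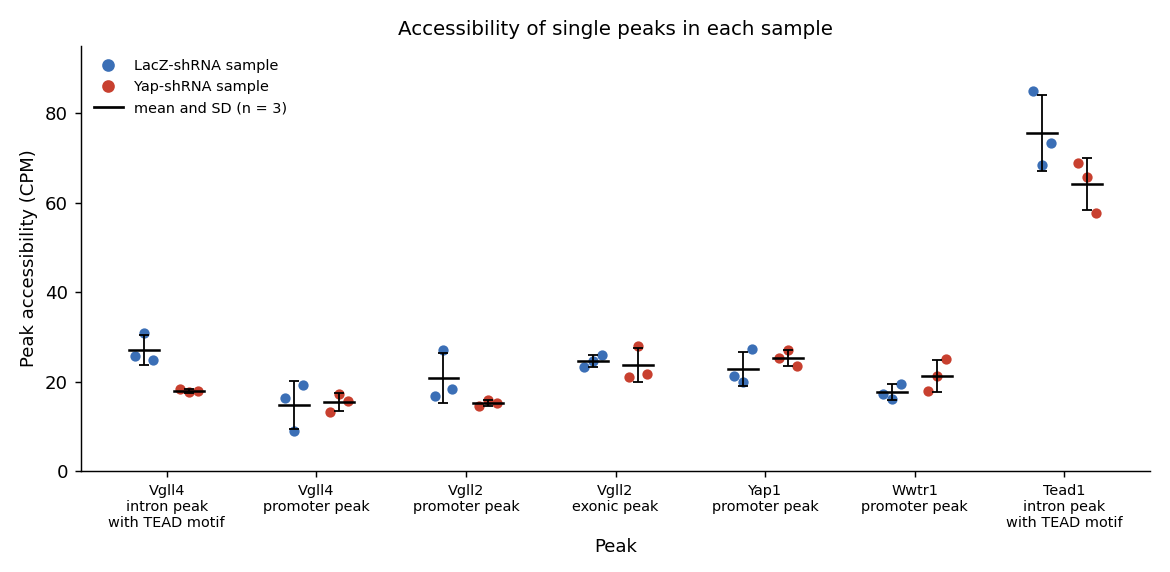
CPM of 7 peaks in each sample (vertical axis), with the mean and SD of 3 samples per group. The Yap-shRNA samples of the Vgll4 intron peak (17.6 to 18.4 CPM) all lie under the LacZ-shRNA samples (24.7 to 31.0), whereas the Yap1 and Wwtr1 promoter peaks overlap between groups. The Tead4 and second Tead1 intron peaks with the motif, both with higher estimates in Yap-shRNA, are not drawn.

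The third was a Tead1 intron peak 194 kb into the gene (chr7:112872258-112873878), with 56.1, 65.0 and 61.6 CPM in LacZ-shRNA and 56.9, 46.6 and 49.1 in Yap-shRNA. Yap-shRNA replicate 1 fell within the LacZ-shRNA range, and the log2 fold change of -0.26 (SE 0.12, p 0.0455) had an adjusted p of 0.546. The most accessible Tead1 peak, the intron peak whose motif pair is shown above (chr7:112762776-112764523), held 84.9, 68.4 and 73.2 CPM against 68.9, 65.7 and 57.7. The groups overlapped by a small margin, at -0.24 (SE 0.13, p 0.0633, adjusted p 0.604), and without LacZ-shRNA replicate 1 the estimate was -0.15. It ranked at the 94.6th percentile of all peaks. The 2 Tead1 promoter peaks gave 0.10 (SE 0.14) at the first start and -0.030 (SE 0.15) at the internal start with a listed peak.

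The strongest peak of all 37 lay in Tead4, 35.6 kb from its 5′ end (chr6:128264601-128265901), at the 95.4th percentile. It held 74.5, 74.7 and 81.2 CPM in LacZ-shRNA and 84.6, 68.4 and 65.5 in Yap-shRNA, with Yap-shRNA on both sides of LacZ-shRNA (-0.081, SE 0.13). The Tead4 promoter peaks gave 0.080 (SE 0.13) at the internal start and 0.062 (SE 0.15) at the first, and at the first start the groups were apart only beyond the third digit (24.5 CPM for both of the nearest samples). The Tead3 promoter peak gave 0.080 (SE 0.13) and the Vgll3 promoter peak 0.022 (SE 0.16), with overlapping groups in both.

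The groups were apart in 2 further peaks. A Tead1 intron peak, named after its values were seen (chr7:112832940-112833576) held 11.5, 12.3 and 13.8 CPM in LacZ-shRNA and 15.7, 14.6 and 15.4 in Yap-shRNA (0.26, SE 0.19, p 0.176). The most accessible peak counted with Tead3 by distance lies at the start of Rpl10a and not of Tead3, and held 57.0, 61.1 and 57.7 CPM against 67.5, 66.4 and 67.0 (0.20, SE 0.12, p 0.110). Both were higher in Yap-shRNA, and neither had a small p-value.

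Peaks with a TEAD motif were described by their counts. Of 9 such peaks 6 had higher estimates and 3 lower, with a median log2 fold change of 0.080, and the 28 without it had a median of 0.068. The Vgll4 intron peak and the most accessible Tead1 peak were 2 of the 3 lower ones, and the Vgll4 promoter peak the other. Intron peaks with the motif went both ways, since those of Tead4 (0.22, SE 0.14) and the second of Tead1 (0.085, SE 0.14) were higher.

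The other genes of the pathway were read from 3 lists with 48 genes in all, of which 46 had a window. By edgeR's quasi-likelihood test 0 passed in either direction, and at an unadjusted p under 0.05 there was 1 higher and 1 lower (4.35%), against 0.0223% and 4.90% of all windows. DESeq2 called 0 of the 38 to which it gave an adjusted p and had 1 at an unadjusted p under 0.05. Without LacZ-shRNA replicate 1, 12 of 46 had an unadjusted p under 0.05, all lower, against 6.91% of all windows (4.27% lower), and in the other leave-outs between 0 and 3 did. Estimates were higher in 16 and lower in 30, against 47.3% higher and 52.7% lower over all windows. The 22 Hippo core and upstream genes, which hold the kinases and proteins that act on them in either direction, had a median log2 fold change of -0.059, and Dchs1, a cadherin upstream of the kinases, had their smallest p-value (-0.25, SE 0.15, p 0.0971). The 16 targets of Yap and TEAD with a window had a median of -0.067. Among them Crim1 held 54.5, 54.8 and 62.8 CPM in LacZ-shRNA and 46.0, 49.2 and 47.2 in Yap-shRNA, groups that were apart (-0.28, SE 0.13, p 0.0404, adjusted p 0.946), in a window that overlaps that of AC154366.4. Over the 3 lists the groups were apart in 2 of 46 windows, against 10.1% of all windows. The other was Parp1, which was higher in Yap-shRNA. The 12 muscle partners of Vgll and TEAD factors had a median of -0.092, and Mef2b, of the MEF2 family, held 11.6, 14.7 and 14.9 CPM against 14.1, 21.3 and 18.8 (0.39, SE 0.18, p 0.0328, adjusted p 0.946). The Mef2b window overlaps those of Borcs8 and Rfxank.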

How the data were processed

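ATAC-seq libraries of PCM1 positive myonuclei were compared between 3 LacZ-shRNA and 3 Yap-shRNA samples. The authors mapped reads to GRCm38 with BWA 0.7.17, dropped duplicates (SAMtools 1.8), defined peaks by MACS 1.4.2-1, merged those seen in more than 1 library and counted with featureCounts 1.5.0, as their methods and processing notes give it. The deposited values are raw read counts for peaks and for promoter windows, with a lowest mean count per feature of 10. All 49366 windows matched the GENCODE annotation, and 10344 overlap another window, where counts are uncertain. Peaks within 1 kb of a gene's starts were its promoter peaks, and peaks within 10 kb of the gene were linked to it.

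All windows, and separately all peaks, were fitted in edgeR 4.0.16 (R 4.3.3) with TMM factors and the group alone. The quasi-likelihood test was used, and p-values were adjusted by Benjamini-Hochberg at 0.05. The fit was also run on simulated data, with changes larger than any window estimate of these genes. That run does not show whether changes of their size would be found. Other settings were DESeq2 1.42.0, the likelihood-ratio test, other scaling factors, a mean count of at least 50, a replicate block, an adjusted p under 0.01, a link of 50 kb, summed promoter peaks and leaving out each sample. The text names the members, their promoter peaks, the 3 other peaks of smallest p-value, the most accessible peak of each gene and the gene of smallest p-value in each list. The members and lists were chosen with earlier results of these data known. P-values measure the spread between these pools. No replicate pair differed by sampling noise alone (lowest chi-square 1.95 per feature). A mapping quality minimum for these counts is not given in the sources used here.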

Additional observations from a re-analysis of the deposited data

How the results depend on the processing

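Of 359 recomputed values of 27 log2 fold changes, 330 kept their direction and their side of the threshold, 28 reversed and 1 passed it. The DESeq2 values of the Yap1, Wwtr1, Vgll1 and Vgll2 windows, which have no adjusted p, were counted as kept by direction alone. The count of windows past an adjusted p of 0.05 stayed at 0 for the 10 genes and for the pathway lists in every setting, although DESeq2 gave an adjusted p to only 6 and 38 of them. The count of peaks was 1 in the likelihood-ratio test (the Vgll4 intron peak) and 0 in every other setting. Scaling by library size only moved the median over all peaks to 0.14 and over all windows to 0.046, and the estimates became 0.043 for the Tead4 window, 0.096 for the Vgll4 promoter peak, 0.062 for the most accessible Tead4 peak, 0.11 for the internal Tead1 promoter peak and 0.076 for the exonic Vgll2 peak. With promoter peaks summed in place of windows the estimates were 0.072 for Tead4, 0.022 for Vgll3 and -0.039 for Vgll4. Each had the opposite sign with TMM factors, windows and all samples, and the cause was not tested.

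Leaving out 1 sample at a time, estimates crossed 0 in these windows: Yap1 (-0.074 to 0.15), Tead1 (-0.017 to 0.11), Tead3 (-0.11 to 0.14), Tead4 (-0.12 to 0.071), Vgll1 (-0.062 to 0.17) and Vgll4 (-0.030 to 0.12). They also crossed 0 in the peak past the end of Vgll4 (-0.0023 to 0.18), the Vgll4 promoter peak (-0.23 to 0.22), the first (-0.018 to 0.16) and the internal (-0.15 to 0.076) Tead1 promoter peak, the exonic Vgll2 peak (-0.21 to 0.014) and the Vgll3 promoter peak (-0.074 to 0.095). The Vgll4 intron peak stayed between -0.64 and -0.49. Without LacZ-shRNA replicate 1, 12 of 46 pathway genes had an unadjusted p under 0.05 (26.1%, against 6.91% of all windows in that fit), and 2 did with all samples. By CPM in place of CPM per kb, Tead2 (86.6) and Vgll4 (80.9) led, and Yap1 (14.4) and Vgll1 remained the lowest pair.

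The labels number replicates 1 to 3 in each group but do not say that a number marks the same animals. For that reason the numbers were not taken as pairs. Deviations of same-numbered samples correlated at 0.19, -0.12 and 0.092 in windows and 0.015, -0.093 and -0.14 in peaks. Those of differently numbered samples correlated at -0.26 to 0.20 in windows and -0.035 to 0.14 in peaks. With 3 samples per group, these values cannot decide whether a number marks a pair. With the replicate block, 0 windows and 0 peaks of these genes were called, the Vgll4 intron peak had a log2 fold change of -0.58 (adjusted p 0.101), and the Vgll4 promoter peak changed sign to 0.018. The 95% intervals of the window estimates reached up to 0.57 from 0.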

Other observations

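Across the 6 samples the windows most like Yap1 in log2 CPM were Gm24420, Gm29454 and Ghrhr, each with a Pearson correlation of 0.980, among 24682 windows with at least the median CPM. Of these windows 101 exceeded 0.9, and a correlation over 6 samples that share depth and scaling is a description only. The correlation of the Yap1 window was 0.73 with Vgll2, 0.55 with Tead1 and -0.14 with Wwtr1.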
